A study of Mus musculus with 16 samples.

Results

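The genes described here are 41 components of Wnt and beta-catenin signalling, *Gsk3b* included, out of 21474 protein-coding genes in the GENCODE M39 annotation of the mouse genome build GRCm39. They were taken as a fixed list of receptors, antagonists, destruction complex proteins and nuclear effectors. The rule itself names no measured value, but the list was chosen with earlier results of these data known. A gene counted as marked in a list when a m6A peak on its own strand overlapped its exons and overlapped no other gene more. 38 of the 41 genes (92.7%) were marked in at least 1 of 8 peak lists, against 52.3% of all protein-coding genes. In all 8 lists, 15 of 41 genes were marked (36.6%), against 18.8% of all protein-coding genes. Among genes with transcripts of 3250 to 6610 nt, a range chosen after the values were seen, the shares were 19.0% and 27.5%. The 15 genes were *Gsk3b*, *Csnk1a1*, *Csnk1e*, *Apc*, *Apc2*, *Axin1*, *Axin2*, *Btrc*, *Lrp6*, *Fzd3*, *Fzd4*, *Fzd7*, *Znrf3*, *Bcl9* and *Bcl9l*. The gene of beta-catenin itself, *Ctnnb1*, had no peak in any list, and neither had the antagonist genes *Dkk1* and *Dkk3*.

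The lists came from MeRIP-seq, in which RNA fragments are pulled down with an antibody against N6-methyladenosine (IP) and sequenced beside untreated fragments (input). The tissue was cerebral cortex bordering the infarct of male C57BL/6J mice operated at 6 to 8 weeks of age. A filament closed the right middle cerebral artery for 2 h, and tissue was taken when flow returned or 6 h or 24 h later. The groups, MCAO/R (occlusion and reperfusion) with the hours of reperfusion, are called 0 h, 6 h and 24 h here, beside Sham mice operated without occlusion. Each group had 6 mice and 2 IP libraries, and whether a library pooled several mice is not given in the sources used here, so replicate error may be technical in part. All groups share strain, sex, age and anaesthesia. The 8 input libraries were not analysed here. More RNA of a gene, more cells that express it and more methylation per RNA can therefore not be told apart.

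In canonical Wnt signalling, secreted Wnt proteins bind a Frizzled receptor together with the co-receptor Lrp5 or Lrp6. Without a ligand, the destruction complex, built on Axin and Apc with the kinases Gsk3 and casein kinase 1, phosphorylates beta-catenin, which Btrc then hands to the proteasome. With a ligand the complex is held back by Dishevelled, and beta-catenin enters the nucleus to work with Tcf/Lef factors and Bcl9 proteins. In brain the pathway is known for cortical development and for the barrier function of vessels, and Gsk3b is widely studied as a kinase active in injured neurons. The m6A mark is written mainly on adenosines in the word RRACH (R is A or G, H is A, C or T), and is known to be dense near stop codons and in long exons.

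Each peak carries a score of the peak caller on a scale that the sources used here do not define. It is given as a percentile, the percent of peaks in the same list with a lower score. Peaks from different lists were treated as 1 region where their exonic parts on a strand overlapped by 1 base or more. The lists held 18775 to 24078 peaks in 6547 to 7891 protein-coding genes, and sequencing depth is unknown because the lists hold no counts. Peaks do not stand for expression, as the cortical neuron genes *Tbr1* and *Fezf2* had a peak in all 8 lists while the abundant neuronal genes *Snap25*, *Syn1*, *Slc17a7* and *Camk2a* had none in any list. Of 4 neutrophil markers none had a peak in any list. Of 6 microglia and macrophage markers 3 to 5 had one per list, both in Sham and after 24 h. Of 4 endothelial markers 2 had a peak in each Sham list, 2 and 4 at 0 h, 3 and 4 at 6 h, and 4 in each 24 h list. The part of this in the results was not tested.

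The sequences below show what the recurrent peaks covered. The coding stretches of 4 genes are the part shared by the peaks of all 8 lists, and the UTR windows of 3 genes are limited to 29 bases. Bases are from the reference genome GRCm39, written 5′ to 3′ on the strand of the gene, and capitals mark RRACH words, which overlap in some places.
Lrp6, coding sequence, chr6:134518660-134518884, minus strand: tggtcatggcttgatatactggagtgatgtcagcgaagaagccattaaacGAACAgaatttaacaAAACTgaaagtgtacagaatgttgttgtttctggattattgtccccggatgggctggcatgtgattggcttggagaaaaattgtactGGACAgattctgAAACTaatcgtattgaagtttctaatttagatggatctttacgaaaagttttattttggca
Fzd4, coding sequence, chr7:89057223-89057497, plus strand: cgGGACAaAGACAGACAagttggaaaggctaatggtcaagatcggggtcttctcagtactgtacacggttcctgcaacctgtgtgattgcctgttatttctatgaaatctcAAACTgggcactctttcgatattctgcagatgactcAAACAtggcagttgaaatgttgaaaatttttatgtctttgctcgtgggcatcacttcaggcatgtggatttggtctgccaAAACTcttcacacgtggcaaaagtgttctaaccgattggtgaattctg
Bcl9l, coding sequence, chr9:44419510-44419659, plus strand: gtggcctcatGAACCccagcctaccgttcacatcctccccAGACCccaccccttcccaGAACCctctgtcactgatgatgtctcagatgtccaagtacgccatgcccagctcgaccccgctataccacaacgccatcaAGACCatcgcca
Axin1, coding sequence, chr17:26362213-26362262, plus strand: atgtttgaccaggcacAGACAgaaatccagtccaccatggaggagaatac
Axin2, 3′ UTR, chr11:108840500-108840528, plus strand: agtgtgtttgagAGACTgacatacataat
Csnk1e, 3′ UTR, chr15:79303241-79303269, minus strand: caacccagcacaaagtcgacaatggattt
Gsk3b, 5′ UTR, chr16:37910549-37910577, plus strand: gttcacgtgatatatatatatttttaagg
The Lrp6 stretch held 4 RRACH words, the Fzd4 stretch 6 and the Bcl9l stretch 4. The *Axin2* window was placed around an RRACH word, so its capitals were set by that choice. The windows of *Csnk1e* and *Gsk3b* were placed otherwise. They are the middle of the part shared by the 8 peaks, were added after the values were seen, and held no RRACH word.

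**Figure D1:**
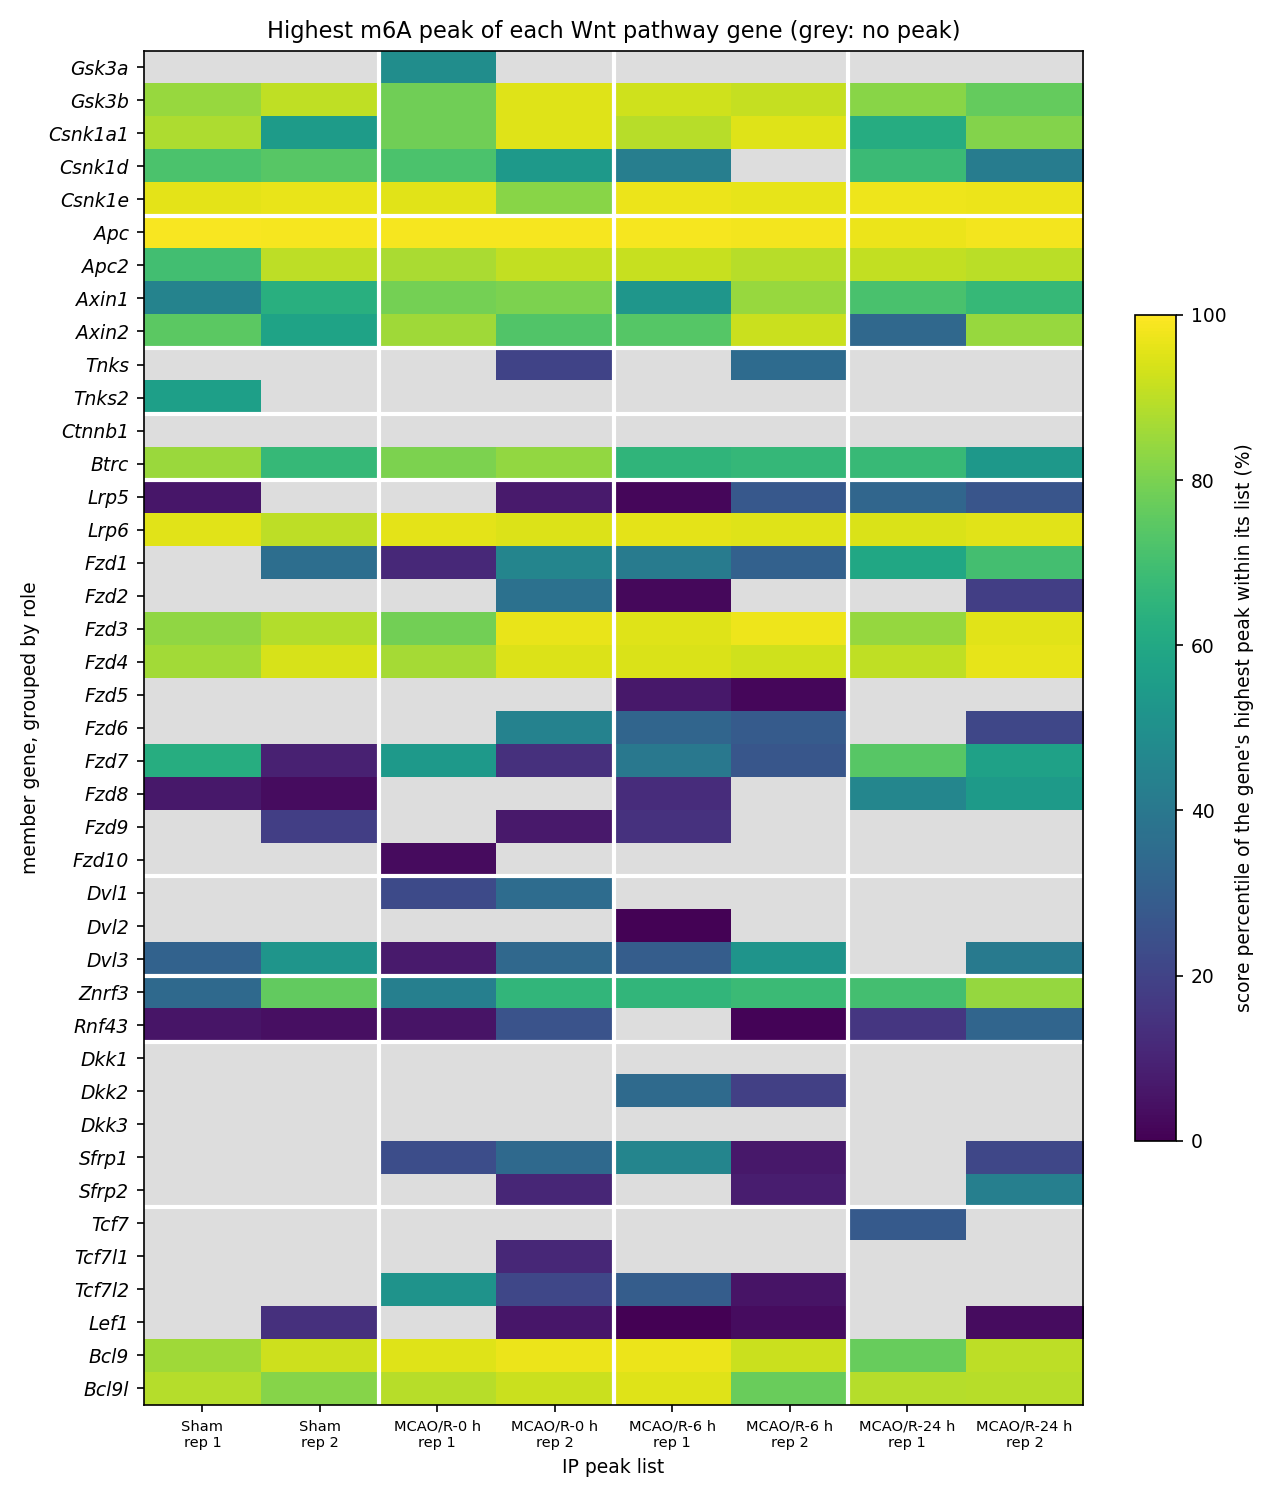
Score percentile within its list (colour, in %) of the highest peak of each of the 41 genes (rows, grouped by role) in each of the 8 IP peak lists (columns, 2 per group), with grey where a gene had no peak. *Apc*, *Lrp6*, *Csnk1e*, *Fzd4* and *Bcl9* are bright in nearly every column, while *Ctnnb1*, *Dkk1* and *Dkk3* are grey in all 8.

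Among the 5 kinases of the destruction complex, 3 were marked in all 8 lists. *Gsk3b*, the glycogen synthase kinase that phosphorylates beta-catenin, carried its recurrent peak in the 5′ UTR and none in the coding sequence. The region lay at chr16:37910463-37910712 in exon 1 of 12 and covered 250 nt, 1637 nt before the stop codon. Its score percentiles were 84.6 and 90.5 in Sham, 78.4 and 95.3 at 0 h, 93.0 and 91.1 at 6 h, and 82.4 and 76.3 at 24 h. Both 6 h values were above both Sham values and both 24 h values below them, while the 0 h values lay on either side. In the exact permutation test of the 4 groups, p was 0.41 and the adjusted p 0.84. The 250 nt held no RRACH word and had a GC content of 35.6%. Of all regions in all 8 lists, 30 of 4345 in protein-coding genes held none, and among the 28 in a 5′ UTR with 200 to 300 nt, 3 held none. *Gsk3b* had further peaks only after 6 h and 24 h. A 150 nt region at the start of the same exon was found in replicate 1 of 6 h (percentile 25.4) and replicate 1 of 24 h (45.1). The other, 5125 nt past the stop codon near the end of the 3′ UTR, was found in replicate 2 of 6 h (43.5) and replicate 2 of 24 h (35.7). Neither was in both lists of a group. The paralog *Gsk3a* had a single peak, 50 nt in the coding sequence, at 0 h replicate 1 at percentile 49.0.

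*Csnk1e*, a casein kinase 1 gene, had one of the highest-ranked peaks of the pathway, in the 3′ UTR 172 nt past the stop codon (chr15:79303156-79303330, last exon). Its percentiles were 96.0 and 96.5 in Sham, 95.5 and 82.0 at 0 h, 97.0 and 96.4 at 6 h, and 97.4 and 96.9 at 24 h. Both 0 h lists were below both Sham lists and both 24 h lists above them, and 7 of the 8 values lay within 95.5 and 97.4. Its exact permutation p over the groups was 0.0381, with an adjusted p of 0.705. *Csnk1a1*, which primes beta-catenin for Gsk3, was marked in its last exon just past the stop codon. Its percentiles were 71.0 and 54.8 in Sham, 78.4 and 95.0 at 0 h, 89.4 and 95.1 at 6 h, and 60.5 and 81.3 at 24 h. All 4 values of the 0 h and 6 h groups exceeded Sham, and those of 24 h did not separate from it. A second *Csnk1a1* region, in the 3′ UTR of longer transcripts, had a peak in both 0 h lists (77.4 and 72.9) and in no other. Marking of that longer 3′ UTR was not limited to 0 h. Outside this region it had peaks in Sham replicate 1 (87.6), 0 h replicate 2 (80.3) and 24 h replicate 1 (62.1). *Csnk1d* was marked in 7 lists, and 1 of its regions in the 3′ UTR had percentiles of 71.8 and 73.9 in Sham and 71.8 at 0 h replicate 1, with no peak in the other 5 lists.

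All 4 scaffold genes of the destruction complex were marked in all 8 lists. *Apc*, the tumour suppressor that holds beta-catenin in the complex, was the most marked gene of the 41, with 96 of their 702 peaks in 19 regions, 7 of them in all 8 lists. It had 16 and 12 peaks in Sham, 12 and 16 at 0 h, 13 and 10 at 6 h, and 8 and 9 at 24 h, so that both lists of the 24 h group held fewer than any other list. Most lay in exon 16, which has 10548 nt and holds most of the coding sequence. The region with the clearest order of groups (chr18:34448290-34448564, centred 3167 nt before the stop codon) had percentiles of 96.4 and 96.1 in Sham, 93.6 and 94.0 at 0 h, 89.3 and 89.6 at 6 h, and 88.7 and 88.9 at 24 h. No group overlapped another there, and every list after occlusion was below both Sham lists. The exact permutation p was 0.00952, the smallest that 105 divisions can give, and the adjusted p was 0.673. A neighbouring region 3843 nt before the stop codon had 98.8 and 98.5 in Sham, 98.5 and 98.6 at 0 h, 97.0 and 94.6 at 6 h, and 97.1 and 98.1 at 24 h, with an exact permutation p of 0.019 and an adjusted p of 0.683. Of the 7 *Apc* regions in all 8 lists, the mean percentile was lower than in Sham in 5 after 0 h, 6 after 6 h and 6 after 24 h. The median difference was -1.27, -2.13 and -3.01 percentile points at these times. For all regions with a peak in the 4 lists compared, the median was 1.49, 1.85 and 1.72. Of those, 2531 of 6285, 2480 of 6275 and 2333 of 5835 were lower than in Sham. The 7 regions belong to 1 gene, and most were near the top of the Sham lists, with little room to rise.

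*Apc2*, the neuronal paralog of *Apc*, ranked above Sham at all 3 times in 1 of its 3 regions with a peak in all 8 lists. In that coding region, 4178 nt before the stop codon (chr10:80147142-80148041), the percentiles were 50.9 and 73.0 in Sham, 87.2 and 82.1 at 0 h, 85.4 and 89.2 at 6 h, and 90.7 and 87.0 at 24 h. The 6 lists after occlusion were all above both Sham lists, but they overlapped one another. The exact permutation test over the 4 groups gave p = 0.0667 (adjusted p = 0.724). Each value is that of the highest peak in the list, and these peaks lay at different places. Relative to the stop codon, they were centred at -4603 and -4540 nt in Sham and from -4190 to -4015 nt after occlusion. Nearer to the latter places, Sham had 44.9 in replicate 1 and 61.3 and 42.6 in replicate 2. Near the Sham places, 0 h replicate 2 had 52.6 and 24 h replicate 2 had 27.0. The values are therefore not those of a single site. *Axin1*, which nucleates the complex, had a coding region in exon 2 with 14.8 and 63.0 in Sham, 79.1 and 80.3 at 0 h, 52.5 and 84.7 at 6 h, and 71.2 and 67.0 at 24 h. Its Sham lists were further apart than those of any other group. *Axin2*, a feedback target of the pathway, had a region in exon 2 and one in the 3′ UTR in all 8 lists. In exon 2 the replicates of 24 h were at 19.1 and 84.5, which spans both Sham values of 68.3 and 58.1. Relative to the stop codon, these peaks were centred at -2205 and -2005 nt at 24 h and at -1892 and -2155 nt in Sham, so they do not mark a single site. In the 3′ UTR *Axin2* had 75.0 and 56.9 in Sham and 33.7 and 65.1 at 24 h, again without separation.

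The tankyrases, which mark Axin for degradation, were hardly marked, with *Tnks* in 2 lists and *Tnks2* in 1. *Btrc*, the substrate receptor of the ligase that removes beta-catenin, had a 3′ UTR region in all 8 lists 317 nt past the stop codon. Its percentiles were 67.4 and 66.9 in Sham, 80.4 and 61.5 at 0 h, 65.4 and 66.7 at 6 h, and 67.4 and 53.1 at 24 h. All lists thus lay between 53.1 and 80.4. Both 6 h lists were narrowly below both Sham lists, and the 0 h and 24 h lists did not separate from Sham.

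**Figure D2:**
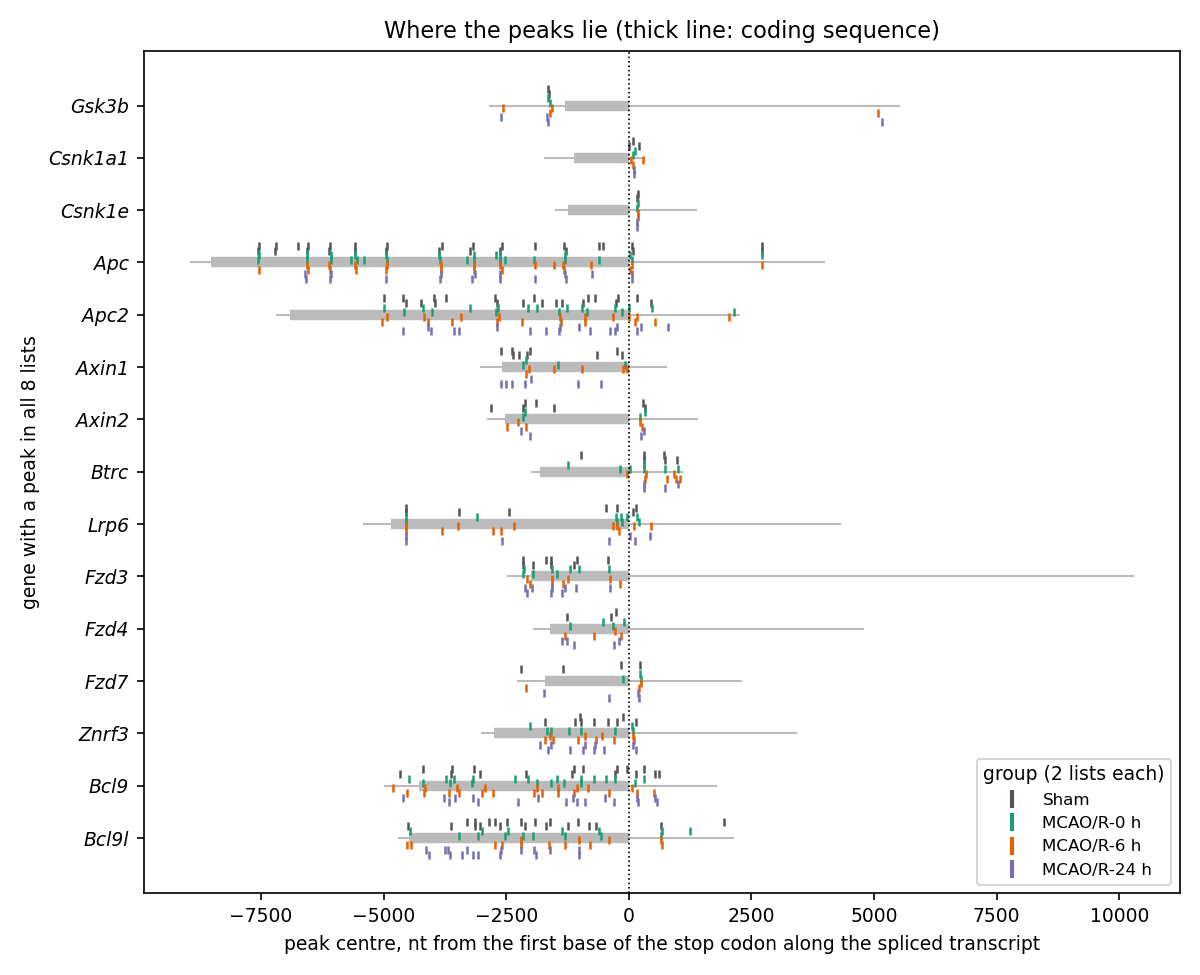
Peak centres (ticks, coloured by group) of the 15 genes with a peak in all 8 lists, in nt from the stop codon along the spliced transcript, with the coding sequence as a thick line and the UTRs as a thin line. *Gsk3b* ticks gather in the 5′ UTR, *Csnk1e*, *Csnk1a1* and *Btrc* ticks mostly follow the stop codon, and *Apc*, *Apc2*, *Bcl9* and *Bcl9l* ticks spread along the coding sequence.

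Among the 12 receptor and co-receptor genes, 4 were marked in all 8 lists and 8 in some. *Lrp6* ranked high in every list. Its coding region in exon 2, the first sequence printed above, had percentiles of 95.4 and 90.1 in Sham, 95.9 and 94.8 at 0 h, 95.7 and 95.1 at 6 h, and 94.2 and 95.7 at 24 h. The groups overlapped, with an exact permutation p of 0.581 (adjusted p = 0.906). The other co-receptor, *Lrp5*, was marked in 6 lists. *Fzd4*, the receptor for norrin in vessels of the brain and retina, had a coding region near the stop codon at 86.2 and 93.9 in Sham, 86.4 and 94.8 at 0 h, 94.3 and 92.9 at 6 h, and 90.4 and 96.3 at 24 h. Here too the groups overlapped. *Fzd3*, a receptor needed for axon tracts, had a region across the start codon at 83.2 and 88.3 in Sham, 78.6 and 85.4 at 0 h, 94.8 and 97.5 at 6 h, and 84.3 and 95.6 at 24 h. Both 6 h lists were above Sham in this region and in the coding region of *Fzd3* in exon 4 (95.0 and 87.8 against 83.4 and 85.2). In exon 4 the peak at 95.0 was centred at -1245 nt from the stop codon. The Sham peaks were at -1583 nt and that of 6 h replicate 2 at -1570 nt. Near these places, at -1558 nt, 6 h replicate 1 had 87.6. *Fzd7* was marked in all 8 lists, but none of its 7 regions was in all of them.

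The remaining Frizzled genes were marked in 1 to 7 lists each. *Fzd1*, a single-exon gene, had no peak in Sham replicate 1, 2 in Sham replicate 2, 2 and 3 at 0 h, 4 and 5 at 6 h, and 3 and 5 at 24 h. In its 3′ UTR, 178 nt past the stop codon, a region without a Sham peak had percentiles of 11.6 at 0 h replicate 1, 41.5 and 22.1 at 6 h, and 59.6 and 70.2 at 24 h. In its coding sequence another had 11.1 and 45.6 at 0 h, 12 and 5.06 at 6 h, and 57.1 at 24 h replicate 2. *Fzd6* was marked in 4 lists, all after occlusion, at 44.2 at 0 h replicate 2, 32.7 and 28.8 at 6 h, and 21.3 at 24 h replicate 2. *Fzd5* was found only in the 6 h lists, where its shared 75 nt region was at 0.757 and 1.70, near the bottom of each list. *Fzd2*, *Fzd8*, *Fzd9* and *Fzd10* were marked in 3, 5, 3 and 1 lists. The lists differed in length, and with the 18775 highest-scoring peaks of every list, 1 *Fzd1* region and the *Fzd6* region were gained after 6 h, and the *Fzd5* region was not.

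Of the Dishevelled genes, which relay the signal from Frizzled, *Dvl3* was marked in 7 lists, *Dvl1* in 2 and *Dvl2* in 1. The *Dvl1* peak, 100 nt in the 5′ UTR, was in both 0 h lists (22.3 and 35.2) and in no other. *Znrf3* and *Rnf43* encode membrane ligases that remove Frizzled from the cell surface. *Znrf3* was marked in all 8 lists with 41 peaks in 9 regions, none of them in all 8. A coding region of *Znrf3* 258 nt before the stop codon was at 17.3 and 21.6 in Sham, 50.1 at 0 h replicate 2 and 38.1 at 6 h replicate 2, and had no peak at 24 h. *Rnf43* had a 75 nt region in the 5′ UTR at 5.68 and 4.24 in Sham and 4.10 and 1.24 at 0 h, with no peak at 6 h or 24 h. These are among the lowest scores of their lists.

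Secreted antagonists had few peaks. *Sfrp1*, which binds Wnt proteins, had no peak in Sham and a 3′ UTR region at 23.6 and 34.0 at 0 h, 45.6 and 6.42 at 6 h, and 21.4 at 24 h replicate 2. *Dkk2*, an antagonist of Lrp5 and Lrp6, was found only at 6 h (34.6 and 18.8), in the 3′ UTR 70 nt past the stop codon. *Sfrp2* was marked in 3 lists, all after occlusion.

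Among the 6 nuclear effectors, both Bcl9 genes were marked in all 8 lists and the 4 Tcf/Lef genes in 1 to 5. *Tcf7l2*, a Tcf factor that binds beta-catenin, had no peak in Sham or 24 h, 1 and 2 peaks at 0 h, and 4 and 1 at 6 h, spread over 7 regions of which none was in both lists of a group. *Tcf7* and *Tcf7l1* had a peak in 1 list each, and *Lef1* in 5 lists. *Bcl9* and *Bcl9l*, which tie beta-catenin to its coactivators, had 77 and 68 peaks. A *Bcl9* region around the stop codon (chr3:97111503-97112852, 1350 nt) was at 85.6 and 82.6 in Sham, 95.3 and 96.9 at 0 h, 97.0 and 88.6 at 6 h, and 72.5 and 64.4 at 24 h. The 0 h and 6 h lists were all above Sham and the 24 h lists both below it. The region joins several peaks, and each value is that of the highest peak in the list. These peaks were centred from 400 nt before (6 h replicate 2) to 525 nt past the stop codon (24 h replicate 1). The values are therefore not those of a single site. The exact permutation p was 0.0286 and the adjusted p 0.705. The *Bcl9l* coding region of the sequence printed above was at 88.9 and 53.6 in Sham, 86.9 and 92.1 at 0 h, 95.0 and 77.3 at 6 h, and 88.7 and 89.4 at 24 h, so that 1 Sham list lay far from the other 7. Smaller *Bcl9l* regions were found only at 0 h (65.9 and 46.3, 5′ UTR of another transcript) and only at 24 h (30.3 and 53.1, coding sequence of exon 3).

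Of the 702 peaks of the 41 genes, 8.0% were centred in a 5′ UTR, 67.9% in coding sequence and 24.1% in a 3′ UTR. Per list, 68.1% ± 5.0 were in coding sequence (SD, n = 8), against 58.4% ± 1.5 of the peaks of all protein-coding genes. Within 200 nt of the stop codon lay 13.8% ± 3.1 of the Wnt pathway peaks (SD, n = 8) and 20.4% ± 0.40 of all peaks. Every one of the 8 lists had the lower share for the pathway. *Apc*, *Bcl9*, *Apc2* and *Bcl9l* held 96, 77, 76 and 68 of the 702 peaks, most of them in coding sequence. The pathway shares thus weigh these genes most, and shares without them were not computed. By group the pathway share was 11.7% and 10.1% in Sham, 13.2% and 17.0% at 0 h, 17.4% and 17.8% at 6 h, and 11.6% and 11.4% at 24 h. The lists of the 0 h and 6 h groups were all above those of Sham and 24 h, while the share of all peaks stayed between 19.6% and 20.8%. Each pathway share rests on 69 to 92 placed peaks, so that a few peaks separate 13.2% at 0 h from 11.7% in Sham. The split was seen in the values and was not tested. These peaks lay in long exons, with a median host exon of 2471 nt ± 356 per list against 2004 nt ± 63 for all peaks (SD, n = 8). The transcripts of the 41 genes had a median of 4266 nt, against 2934 nt for all protein-coding genes, and the 15 genes marked in all 8 lists a median of 6720 nt. Among genes of 3250 to 6610 nt, the middle of the members' lengths and a range chosen after the values were seen, 4 of 21 members (19.0%) and 2000 of 7268 protein-coding genes (27.5%) were marked in all 8 lists. This range leaves out the shorter *Csnk1a1*, *Csnk1e* and *Btrc* and the longer *Gsk3b*, *Apc*, *Apc2*, *Lrp6*, *Fzd3*, *Fzd4*, *Bcl9* and *Bcl9l*, all marked in all 8 lists. The part of transcript length in the share over all members was not tested.

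RRACH words stood at 16.3 per kb inside the regions of the 41 genes and at 12.8 per kb in the rest of the exons of the same transcripts, a log2 ratio of 0.35. For all protein-coding genes the densities were 17.6 and 14.2 per kb, a log2 ratio of 0.31. In the 27 member regions with a peak in all 8 lists, the density inside was 17.5 per kb and 26 of the 27 held at least 1 RRACH word. The exception was the 5′ UTR region of *Gsk3b*, and the *Csnk1e* region had the densest, 8 words in 175 nt.

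The 4 groups were compared by the score percentiles of each region that had a peak in all 8 lists, with a one-sided exact permutation test for larger differences than other divisions of the lists into 4 pairs give. Of 27 member regions, 4 had p under 0.05 (14.8%), against 6.67% of all 4735 regions tested. They were the 2 *Apc* regions, the *Bcl9* region and the *Csnk1e* region given above. None of the 4735 regions passed 0.05 after Benjamini-Hochberg adjustment, where the smallest adjusted p was 0.673, and 316 had an unadjusted p under 0.05. The test has little power for a change in 1 group only, as 15 of the 105 divisions keep a given pair of lists together, and p can then be as high as 0.143. With replicate numbers as a paired design (replicate block, smallest possible p 0.0417), 2 of the 27 regions had p under 0.05, and the first *Apc* region was 1 of them. A comparison of 2 lists against 2 allows 3 splits, with a smallest p of 0.333, so single times were compared with Sham without a test.

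**Figure D3:**
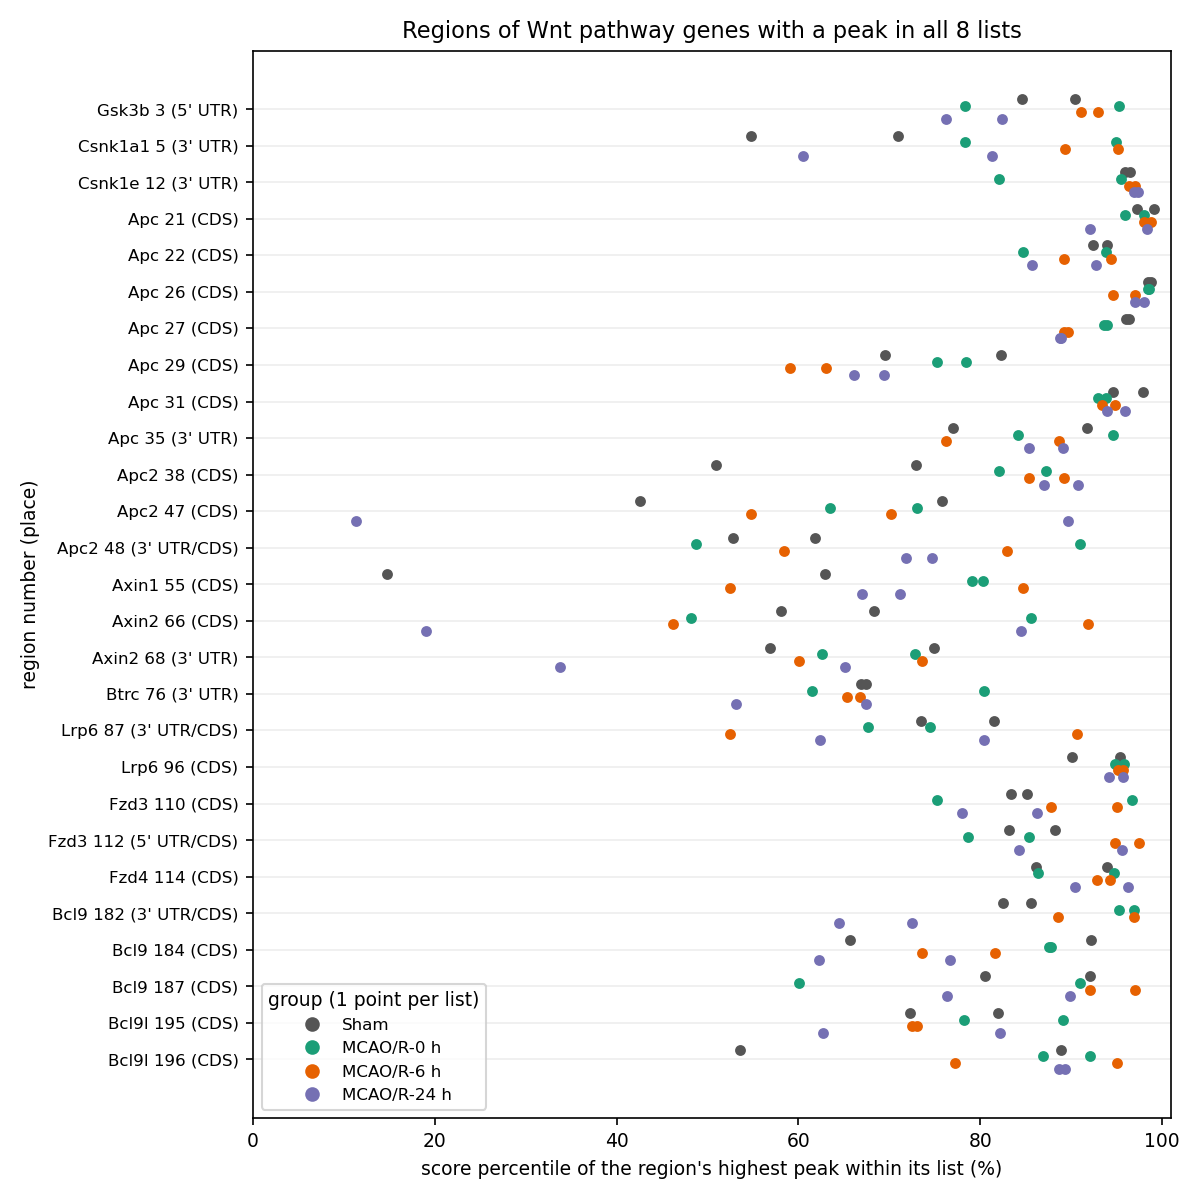
Score percentile (x axis, in %) of the highest peak in each of the 27 regions with a peak in all 8 lists (rows, numbered in gene and genome order, with their place), 1 point per list coloured by group. The groups of *Apc* 27 follow one another without overlap from 96.4 to 88.7, the 24 h points of *Bcl9* 182 stand below the others, and the points of *Lrp6* 96 lie together.

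Against Sham, a region was called gained when both lists of a time and neither Sham list had a peak, and lost in the reverse case, among regions in at least 2 of the 4 lists. After 0 h, 5 of 66 member regions were gained (7.58%, against 8.58% of all regions) and 1 was lost (1.52%, against 4.18%). The gained regions were those of *Csnk1a1*, *Fzd1*, *Dvl1*, *Sfrp1* and *Bcl9l*. After 6 h, 6 of 69 were gained (8.70%, against 11.1%), namely 2 of *Fzd1* and 1 each of *Fzd5*, *Fzd6*, *Dkk2* and *Sfrp1*, all of them receptor or antagonist genes, and 4 were lost (5.80%, against 4.54%). With equal list lengths 2 regions were gained at 6 h, in *Fzd1* and *Fzd6*. After 24 h, 2 of 62 were gained (3.23%, against 8.78%), in *Fzd1* and *Bcl9l*. At this time 8 were lost (12.9%, against 6.39%), and 4 of them were *Apc* regions. Without *Apc*, 4 of 49 regions were lost at 24 h (8.16%), and with the higher-scoring 50% of each list 4 of the members' regions were lost, 3 of *Apc* and 1 of *Csnk1d*. The *Apc* regions lost at 24 h included 2 in early coding exons with high percentiles in Sham, 94.5 and 93.6 in the one and 81.2 and 91.0 in the other. The second of these had a peak in no list after occlusion. Another, in exon 16, was at 97.2 and 88.2 in Sham, 96.5 and 93.9 at 0 h and 95.0 and 89.3 at 6 h before it was missing from both 24 h lists. The last lay in the 3′ UTR (53.8 and 44.2 in Sham). The other regions lost at 24 h were in *Csnk1d*, *Apc2*, *Znrf3* and *Rnf43*, and those of *Csnk1d*, *Apc2* and *Rnf43* were also missing at 6 h. The *Apc2* region, in coding sequence, was at 23.1 and 44.3 in Sham. These Sham peaks were centred at -1940 and -1765 nt from the stop codon. Close by, 24 h replicate 2 had peaks at -2015 nt (52.6) and -1690 nt (38.2) that were counted to other regions.

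**Figure D4:**
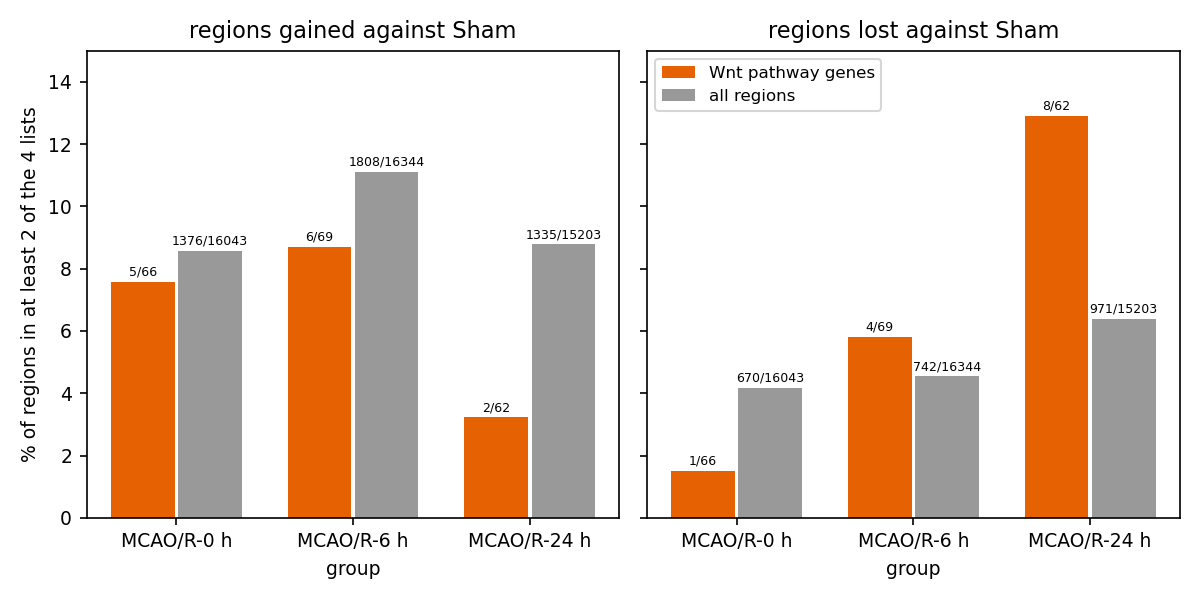
Percent of regions gained (left) and lost (right) against Sham in each group after occlusion (x axis), for the 41 genes and for all regions, with counts above the bars. Bars have no error because each is a single count over 4 lists. The bar of lost member regions at 24 h stands at 12.9% against 6.39%, and that of gained ones at 3.23% against 8.78%.

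Among regions with a peak in all 4 lists compared, both percentiles exceeded both Sham values in 5 of 33 member regions after 0 h (15.2%, against 22.1% of all), 7 of 31 after 6 h (22.6%, against 25.8%) and 5 of 29 after 24 h (17.2%, against 25.3%). Both were below Sham in 6 of 33 after 0 h (18.2%, against 11.6%), 4 of 31 after 6 h (12.9%, against 13.5%) and 5 of 29 after 24 h (17.2%, against 13.3%). *Apc2*, *Bcl9*, *Csnk1a1*, *Fzd3*, *Gsk3b* and *Znrf3* held the 7 regions above Sham at 6 h. *Apc* held 2, 3 and 3 of its 7 regions in all 8 lists below Sham at the 3 times. The median difference to Sham over member regions was 1.70 percentile points after 0 h, 0.96 after 6 h and -2.20 after 24 h, and over all regions 1.49, 1.85 and 1.72. The comparisons share the 2 Sham lists.

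Of 82 other genes of the Wnt pathway, 30 were marked in all 8 lists, 37 in some and 15 in none, and those named here were chosen after their values were seen. Cytoplasmic regulators were marked most, 11 of 16 in all 8 lists, among them the Apc partners *Amer1*, *Amer2* and *Amer3* and the tankyrase partner *Rnf146*. Of 19 Wnt ligand genes, *Wnt4*, *Wnt7b* and *Wnt10a* were marked in all 8 lists and 5 in none. Among the R-spondins, ligands that shield Frizzled from Znrf3 and Rnf43, *Rspo1*, *Rspo2* and *Rspo3* were marked in all 8 lists, as was their receptor gene *Lgr4*. Of the regions of these 82 genes, 12 of 129 were gained and 4 lost after 0 h, 13 of 123 gained and 7 lost after 6 h, and 12 of 115 gained (10.4%) and 8 lost (6.96%) after 24 h. Each of these shares was within 2 percentage points of that over all regions.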

How the data were processed

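The study made MeRIP-seq libraries of peri-infarct cortex, and its 8 IP peak lists were used. The authors' methods name Trim Galore (version 0.6.7), HISAT2 (version 2.2.1) with GRCm39, and exomePeak2 for the calls. The score deposited with each peak comes from that caller, its scale is not given in the sources used here, and it served only as a rank within its list. Depth is unknown, so precision rests on 2 libraries per group. Python 3.11.15 and numpy 2.4.6 cut peaks to GENCODE M39 exons, a later release than the one behind the study's gene counts, and gave each to the gene with most exonic overlap on its strand. The transcript with the longest coding sequence set places. Peak assignment and the permutation test were tested on simulated data. Genes named with values are *Gsk3b*, *Gsk3a*, *Ctnnb1*, *Apc*, *Axin1*, *Axin2*, *Lrp6*, *Tcf7l2*, members with a gained or lost region or an unadjusted exact permutation p under 0.05, the 10 with the highest lowest percentile in a region of all 8 lists, and those without a peak. Members and gene lists were chosen with earlier results of these data known. Alternatives left out each library, equalised list lengths, kept the higher-scoring 50%, joined peaks otherwise, permuted within replicate numbers, or changed the window, transcript, motif or gene assignment.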

Additional observations from a re-analysis of the deposited data

Results flagged for a closer look

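In 3 cases, regions in the genes of the pathway moved in opposite directions against Sham at different times. Both lists of each time were on one side of both Sham lists, and these differences between times were not tested. How many of all regions did the same was not counted. At a single time, 22.1% to 25.8% of all ranked regions were above Sham and 11.6% to 13.5% below it. In the 5′ UTR region of *Gsk3b*, the mean score percentile was 4.51 points above Sham at 6 h and fell by 8.20 points against Sham at 24 h, a difference of 12.7 points. In the 3′ UTR region of *Csnk1e*, it fell by 7.48 points at 0 h and was 0.92 points above Sham at 24 h, a difference of -8.40 points. This fall rests on replicate 2 of 0 h at 82.0, as replicate 1 was at 95.5 and Sham at 96.0 and 96.5. In the *Bcl9* region around the stop codon, it was 12 points above Sham at 0 h, 8.70 points above at 6 h and had a difference of -15.6 points at 24 h, so that 0 h differed from 24 h by 27.6 points and 6 h from 24 h by 24.3 points. The highest peak of this *Bcl9* region lay at different places in different lists. The compared times share the 2 Sham lists.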

How the results depend on the processing

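The number of genes marked in all 8 lists, the counts of lost regions at 0 h and of ranks below Sham, and the RRACH ratio changed by less than 1.5 times or less than their interval under all alternatives other than leaving out a library. With equal list lengths, 2 regions were gained at 6 h in place of 6. With the higher-scoring 50% of each list, 2 were gained at 0 h, 1 at 6 h and 1 at 24 h, 2 were lost at 6 h and 4 at 24 h, and 3 ranked above Sham at 0 h and 3 at 24 h. Leaving out 1 library loosens the rule to 3 lists. The counts then ranged from 6 to 29 (gained) and 4 to 21 (lost) at 0 h, 10 to 31 and 6 to 20 at 6 h, and 4 to 24 and 9 to 28 at 24 h. Ranks above Sham ranged from 10 to 13 at 0 h, 14 to 16 at 6 h and 6 to 15 at 24 h, and ranks below from 8 to 17, 8 to 11 and 10 to 14. Regions with an unadjusted exact permutation p under 0.05 numbered 1 to 3 without a library, with 1 when replicate 2 of 0 h was left out, and 2 with the replicate block. The first *Apc* region kept p = 0.00952 without each library in this exact permutation test, while p rose to at most 0.229 for *Csnk1e*, 0.0571 for *Bcl9* and 0.229 for the second *Apc* region. The numbers gave no pairing, as the correlations of replicate differences between groups over 4735 regions were 0.034 to 0.098. Near the stop codon the share was 6.20% within 100 nt and 24.6% within 400 nt, against 10.8% and 33.9% of all peaks. Without counts, depth could not be weighed.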
